A study of Mus musculus with 6 samples.

Results

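This account describes 40 genes that copy DNA or carry cells through mitosis, measured by poly(A) mRNA sequencing in mouse embryonic stem cells with and without DGCR8. The genes were chosen as a list of symbols, and all 40 were present among the 21978 genes of the count table. They comprise 20 genes of the replication machinery, 5 regulators of S phase (the phase in which DNA is copied) and 15 genes of mitosis. All 40 passed the filter on low counts, and the lowest value of any of them in any library was 11.2 CPM (counts scaled to a common library size). DGCR8 works with the nuclease Drosha to cut primary microRNA transcripts in the nucleus, and E518K is a substitution in this protein.

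The libraries formed 3 groups of 2. KO cells had the genotype DGCR8 -/- and were not transfected (libraries 1 and 3). The wt cells, clones 12 and 16, had the genotype label DGCR8 wt/wt and were transfected with pSB ET iE-FlagDGCR8-wt, a transposon vector for Flag-tagged wild-type protein, together with the transposase plasmid pCMV(CAT)-SB100X. The E518K cells, clones 8 and 15, had the genotype label DGCR8 E518K/E518K and received the same plasmids with the E518K protein in place of the wild-type one. All 6 cultures were given doxycycline at 300 ng/mL for 48 h and grew on gelatin with LIF and 2 kinase inhibitors, with no feeder cells. Each transfected library is 1 clone. Per the series description, each condition used 2 independent clones, but both KO titles carry the clone number 261, so the spread between the KO libraries may be technical, and p-values measure only the spread between these libraries. The labels do not say whether KO cells were the parents of the transfected clones. KO alone was not transfected, so absence of DGCR8 and absence of the vector, the transposase and clone picking cannot be told apart in comparisons with KO.

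Library totals lay between 73642784 and 75121971 counts. Dgcr8, the targeted gene (chr16:18253948-18289246, minus strand), was read at 40 and 37.1 CPM in the KO libraries. It stood at 195.5 CPM in wt clone 12, 992.4 CPM in wt clone 16, 820.6 CPM in E518K clone 8 and 420.2 CPM in E518K clone 15. Its span overlaps that of Trmt2a, whose reads it can share. All 12 markers of embryonic stem cells were detected in each library, and their summed level was 6137 and 6062 CPM in KO, 8180 and 7098 CPM in wt, and 7441 and 7492 CPM in E518K. Of these 12, 10 were lower and 1 higher in KO than in wt. The 8 fibroblast markers summed to 7.20 and 8.17 CPM in KO, 4.28 and 7.36 CPM in wt, and 4.65 and 3.92 CPM in E518K, with Lum at 0 in 5 of 6 libraries and Dcn at 0 in E518K clone 15. The 12 markers of differentiated cells summed to 51.5 and 56.6 CPM in KO, 48.9 and 46.7 CPM in wt, and 55.6 and 54.6 CPM in E518K. These sums hide opposite moves: 2 of the 12 were higher and 4 lower in KO than in wt, with log2 fold changes from -2.30 to 3.36. The part of these marker differences in the results below was not tested.

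Before each S phase, the origin recognition complex, Cdc6 and Cdt1 load the Mcm2-7 ring onto DNA, and geminin (Gmnn) blocks Cdt1 so that origins fire only once per cycle. Cdc45 and the GINS complex then turn the ring into an active helicase, polymerase alpha with primase lays down primers, and the clamp Pcna, loaded by replication factor C, holds the polymerases on the template. Entry into mitosis is driven by Cdk1 with cyclins A and B, held back by Wee1 and released by Cdc25 phosphatases, and the Plk and Aurora kinases, the spindle checkpoint and Cdc20 order the later steps. Mouse embryonic stem cells cycle fast with a short first gap phase, and E2F factors drive many genes of the first set while the DREAM and MuvB complexes act through CHR elements on many genes of the second. In bulk RNA, fewer cells in a phase and less RNA per cell cannot be told apart.

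KO differed from wt in 31 of the 40 genes, and most of the change was downward (Benjamini-Hochberg adjusted p under 0.05 in edgeR's quasi-likelihood test, over 16498 genes tested). In KO against wt, 9 rose and 22 fell, where 27.4% of all tested genes were called higher and 29.7% lower. E518K against wt gave 8 genes higher and 3 lower, where 11.3% of tested genes were called higher and 12.5% lower. E518K against KO gave 20 higher and 4 lower, where 22% of tested genes were called higher and 19.8% lower. The median log2 fold change of the 40 genes was -0.32, 0.05 and 0.26 in these comparisons, and that of all tested genes was -0.02 in each. The groups compared share libraries, so the comparisons are not independent of each other. The groups compared did not overlap in any of these calls. With 2 libraries per group this adds no support, as genes not called, such as Mcm2 and Cdk1 in E518K against wt, also showed no overlap. The share without overlap over all tested genes was not computed.

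**Figure D1:**
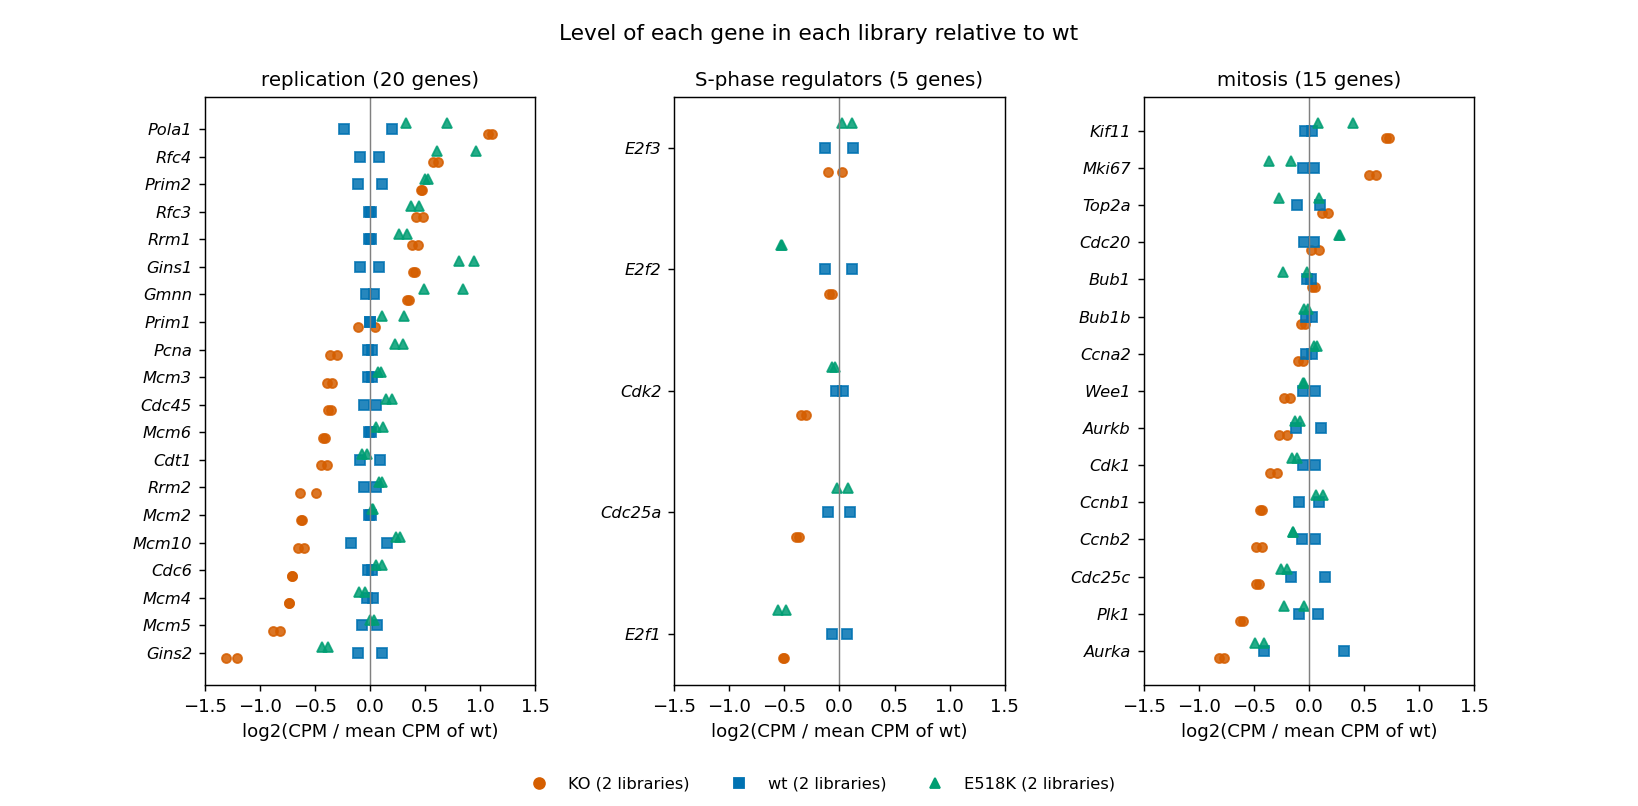
Level of each of the 40 genes in each of 6 libraries as log2 of its CPM over the mean CPM of wt (x axis), one row per gene, split into replication (20 genes), S-phase regulators (5) and mitosis (15); circles are KO, squares wt and triangles E518K. Most replication rows have KO on the left and E518K near or to the right of wt, whereas the 7 top rows, from Pola1 to Gmnn, have KO on the right.

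The replication genes split into a larger part that fell in KO and a smaller part that rose. Of 20 genes, 12 fell and 7 rose in KO, and only Prim1 was not called. In E518K against wt, 7 rose and 1 fell, and in E518K against KO 14 rose and 1 fell. Without KO library 3 the rises in KO dropped to 4, with 12 falls. In E518K against wt, 2 were higher and 0 lower without E518K clone 15, and 4 and 0 without clone 8. Their summed level was 3161 and 3259 CPM in KO, 4238 and 4310 CPM in wt, and 4561 and 4698 CPM in E518K. Of the 15 mitosis genes, 7 fell and 2 rose in KO, 1 rose in E518K against wt, and 4 rose and 2 fell in E518K against KO. The 7 falls in KO became 3 without KO library 1 or with the KO libraries summed, and 5 without KO library 3. In E518K against KO, 2 were higher and 1 lower without either KO library, 2 and 2 without E518K clone 8, 3 and 3 without clone 15, and 10 and 2 without either wt clone. The summed level of the mitosis genes was 2224 and 2297 CPM in KO, 2573 and 2388 CPM in wt, and 2351 and 2456 CPM in E518K. Calls over all tested genes also dropped without a KO or E518K library or with the KO libraries summed. Those between E518K and KO also grew without a wt clone. These changes in the counts are thus not particular to the listed genes. Whether the replication and mitosis genes differ from each other was not tested.

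The ring of the helicase was represented by Mcm2 to Mcm6, and the remaining subunit, Mcm7, is among the further genes described below and rose in KO (0.30 ± 0.05, adjusted p = 0.00269). All 5 listed subunits (Mcm2 to Mcm6) fell in KO, all 5 were higher in E518K than in KO, and 0 of 5 were called in E518K against wt (edgeR, and 0 also at an unadjusted p under 0.05, with DESeq2 and with limma). Of all tested genes, 29.7% were called lower in KO than in wt and 22% higher in E518K than in KO. In E518K against wt 23.7% were called either way. Mcm5 (chr8:75109569-75128439, plus strand) was read at 288.5 and 301.1 CPM in KO, 505.3 and 555.7 CPM in wt, and 531.4 and 542.9 CPM in E518K. The KO libraries lay below all 4 others, and the E518K clones lay within the range of the wt clones. The difference was -0.85 ± 0.07 in KO against wt (log2 fold change ± SE, n = 2 libraries per group here and below, edgeR adjusted p = 9.52e-05), 0.02 ± 0.07 in E518K against wt (adjusted p = 0.862) and 0.87 ± 0.07 between E518K and KO (adjusted p = 2.37e-04). Mcm4 (chr16:15623897-15637400, minus strand) stood at 211.5 and 211.0 CPM in KO, 344.5 and 359.3 CPM in wt, and 329.2 and 341.7 CPM in E518K, a fall of 40% in KO (-0.74 ± 0.06, adjusted p = 9.44e-05). Mcm2 (chr6:88883474-88898780, minus strand) was read at 367.3 and 369.9 CPM in KO, 565.2 and 571.1 CPM in wt, and 578.0 and 575.7 CPM in E518K. That is 35.1% lower in KO than in wt (-0.62 ± 0.05, adjusted p = 1.21e-04) and 56.5% higher in E518K than in KO (0.65 ± 0.05, adjusted p = 2.83e-04). Mcm6 and Mcm3 moved less, by -0.42 ± 0.06 and -0.37 ± 0.05 in KO (adjusted p = 8.12e-04 and 0.00122). Over these 5 genes the summed level was 1489 and 1520 CPM in KO, 2245 and 2305 CPM in wt, and 2299 and 2345 CPM in E518K, and in E518K against wt single subunits lay between -0.07 and 0.08.

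The factors that switch the ring on did not move as a block. Gins2 (chr8:120578633-120589304, minus strand), a GINS subunit, had the largest fall of the 40 genes in KO. It was read at 51.0 and 47.5 CPM in KO, 126.5 and 108.9 CPM in wt, and 90.1 and 87.2 CPM in E518K, so that E518K lay between the other groups with no overlap. The differences were -1.26 ± 0.09 in KO against wt (adjusted p = 7.02e-05), -0.41 ± 0.09 in E518K against wt (adjusted p = 0.0176), and E518K against KO gave 0.85 ± 0.09 (adjusted p = 5.65e-04). Leaving out E518K clone 8 ended the middle call (-0.43, adjusted p = 0.0821), as did leaving out clone 15 (-0.38, adjusted p = 0.138). Gins2 shares 2758 bases with Gse1, which itself stood at -1.01 in KO and -0.75 in E518K against wt. Gins1, another subunit of the same complex, went the other way. It was read at 50.9 and 51.5 CPM in KO, 36.4 and 41.1 CPM in wt, and 67.7 and 74.6 CPM in E518K. It was higher than wt in KO (0.40 ± 0.09, adjusted p = 0.00636, and 0.0514 without KO library 3) and in E518K (0.88 ± 0.09, adjusted p = 0.00176), and E518K stood above KO by 0.47 ± 0.09 (adjusted p = 0.00464, and 0.0666 with limma). Cdc45 fell in KO (-0.37 ± 0.07, adjusted p = 0.00342) and was higher in E518K than in KO (0.54 ± 0.07, adjusted p = 0.00114).

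Among the loading factors, Cdc6 stood at 58.1 and 58.0 CPM in KO, 96.3 and 93.8 CPM in wt, and 98.8 and 102.5 CPM in E518K. It fell by 0.71 on the log2 scale in KO (SE 0.06, adjusted p = 1.38e-04) and was 73.4% higher in E518K than in KO (adjusted p = 2.47e-04). Mcm10, which helps activate the helicase, fell in KO (-0.63 ± 0.11, adjusted p = 0.00209) and was higher in E518K than in KO (0.88 ± 0.11, adjusted p = 8.97e-04). Its wt clones differed, at 156.2 and 196.6 CPM, and without wt clone 16 Mcm10 was also called higher in E518K than in wt (0.43, adjusted p = 4.50e-04, against 0.26 ± 0.10 and 0.117 with all libraries). Cdt1 fell by 0.42 in KO (SE 0.07, adjusted p = 0.00262) and was higher in E518K than in KO (0.37 ± 0.07, adjusted p = 0.00672). The second of these calls was lost without KO library 1 (adjusted p = 0.0738) or 3 (adjusted p = 0.0503).

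Gmnn, whose product restrains Cdt1, differed from the loading factors in direction. It was read at 68.3 and 69.1 CPM in KO, 55.7 and 52.8 CPM in wt, and 76.1 and 97.4 CPM in E518K. Both other groups lay above wt, and the E518K clones differed from each other. The difference was 0.34 ± 0.11 in KO against wt (adjusted p = 0.0366), 0.68 ± 0.11 in E518K against wt (adjusted p = 0.00827), and E518K against KO gave 0.34 ± 0.11 (adjusted p = 0.0486). The KO call was lost on leaving out KO library 1 (adjusted p = 0.124), KO library 3 (0.14), wt clone 12 (0.0727) or wt clone 16 (0.129). The call between E518K and KO was lost without any library but E518K clone 8 (adjusted p = 0.189 and 0.171 without KO libraries 1 and 3, 0.0529 and 0.0528 without wt clones 12 and 16, and 0.178 without E518K clone 15). The call between E518K and wt remained under all 14 alternatives fitted to single genes. The KO call also did not pass with upper-quartile factors (0.29, adjusted p = 0.052) or with limma on log2(TPM + 1) (0.38, adjusted p = 0.0624), and that between E518K and KO did not with limma (0.21, adjusted p = 0.258).

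**Figure D2:**
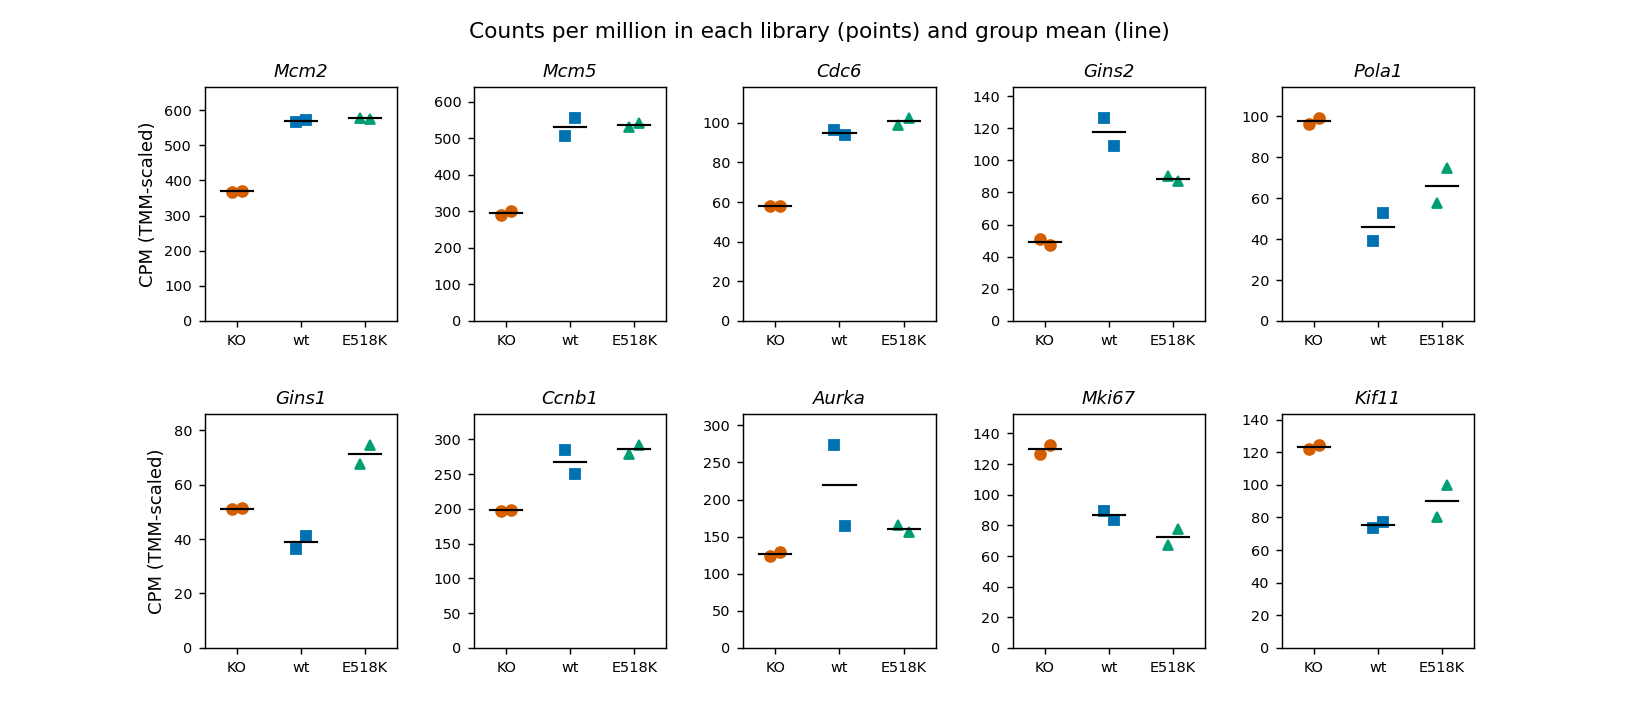
CPM (y axis, from 0) of 10 genes in each library (points) with the group mean (line), in KO, wt and E518K with 2 libraries each. Mcm2, Mcm5, Cdc6, Gins2 and Ccnb1 are lowest in KO, Pola1, Mki67 and Kif11 are highest in KO, Gins1 is highest in E518K, and the 2 wt clones of Aurka lie far apart at 273.7 and 164.8 CPM.

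Of the 3 genes of primer synthesis, Pola1 and Prim2 rose in KO and Prim1 was not called. Pola1 (chrX:93304767-93632155, minus strand), the catalytic subunit of polymerase alpha, had the largest rise of the 40 genes in KO with all libraries and no correction for gene length. It was read at 96.5 and 99.3 CPM in KO, 39.1 and 52.9 CPM in wt, and 57.6 and 74.6 CPM in E518K, with no overlap between groups. KO was 2.13-fold higher than wt (1.09 ± 0.16, adjusted p = 0.00133), E518K lay 0.52 ± 0.16 above wt (adjusted p = 0.0575, but 0.00663 with DESeq2) and 0.57 ± 0.16 below KO on the log2 scale (adjusted p = 0.0277). The last call was lost without KO library 1 (adjusted p = 0.0947), KO library 3 (0.113) or E518K clone 8 (0.184), and the difference between E518K and wt passed the test without wt clone 16 (0.76, adjusted p = 0.0151). Prim2, the large primase subunit, was read at 52.5 and 52.8 CPM in KO, 40.9 and 35.2 CPM in wt, and 54.8 and 53.7 CPM in E518K. It was higher than wt in KO (0.47 ± 0.09, adjusted p = 0.00333) and in E518K (0.51 ± 0.09, adjusted p = 0.00877), the latter with adjusted p = 0.0568 without E518K clone 8 and 0.0700 without clone 15. With limma on log2(TPM + 1) these differences were 0.30 and 0.26 (adjusted p = 0.0114 and 0.0427). Prim1, the small primase subunit, was called in no comparison (-0.03 ± 0.09 in KO and 0.21 ± 0.09 in E518K, both against wt). E518K against KO gave 0.24 ± 0.09 (adjusted p = 0.0713, but 0.0363 with only the groups compared in the fit).

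The sliding clamp and its loader diverged in KO. Pcna stood at 386.3 and 402.8 CPM in KO, 503.6 and 489.9 CPM in wt, and 583.0 and 609.4 CPM in E518K. It fell in KO (-0.33 ± 0.06, adjusted p = 0.0024), rose in E518K against wt (0.26 ± 0.06, adjusted p = 0.019) and was 51.1% higher in E518K than in KO (adjusted p = 4.56e-04). Leaving out any 1 KO or E518K library raised the adjusted p of E518K against wt to between 0.0574 and 0.113. Rfc3 and Rfc4, subunits of the clamp loader, rose in KO by 0.45 ± 0.08 and 0.59 ± 0.14 (adjusted p = 0.00203 and 0.00955) and in E518K against wt by 0.40 ± 0.08 and 0.79 ± 0.14 (adjusted p = 0.011 and 0.00979). Without KO library 3 the Rfc4 call in KO was lost (0.56, adjusted p = 0.063), and without E518K clone 15 both calls in E518K were lost (0.38 and 0.61, adjusted p = 0.0776 and 0.0683).

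The 2 subunits of ribonucleotide reductase, which makes deoxynucleotides, also parted. Rrm1, the large subunit, was read at 235.2 and 244.0 CPM in KO, 182.2 and 179.1 CPM in wt, and 228.6 and 217.2 CPM in E518K. It rose in KO (0.41 ± 0.06, adjusted p = 0.00115) and in E518K against wt (0.30 ± 0.06, adjusted p = 0.0134, and between 0.0541 and 0.0731 without any 1 KO or E518K library). Rrm2, the small subunit whose level limits the enzyme in S phase, was read at 247.6 and 272.4 CPM in KO, 369.4 and 397.9 CPM in wt, and 406.0 and 413.4 CPM in E518K. It fell in KO (-0.56 ± 0.07, adjusted p = 6.03e-04), was higher in E518K than in KO (0.66 ± 0.07, adjusted p = 6.25e-04) and was not called in E518K against wt (0.09 ± 0.07, adjusted p = 0.356).

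Words bound by E2F factors were common before the replication genes. RefSeq gives windows from 250 bases before to 50 bases after the transcript start on GRCm38.p6 for 31 of the 40 genes, and these were searched on both strands for the E2F words TTTCCCGC, TTTGGCGC, TTTCGCGC and TTTGCCGC, which can overlap each other. A gene counts as holding a word if any of its windows does. At least 1 E2F word was found in 7 of 15 replication genes (46.7%), 4 of 5 S-phase regulators and 1 of 11 mitosis genes (9.09%), against 4.23% of 11657 tested genes with a window. By direction in KO, a word was in 8 of 18 genes that fell, 2 of 6 that rose and 2 of 7 that were not called. Mcm5 and Mcm6, which fell, and Pola1, which rose, each hold one, and their windows are shown 5′ to 3′ along the gene with E2F and CCAAT words (either strand) in capitals. A match is a description of the letters and not a sign of binding.
Mcm5 (chr8:75109259-75109558, plus strand): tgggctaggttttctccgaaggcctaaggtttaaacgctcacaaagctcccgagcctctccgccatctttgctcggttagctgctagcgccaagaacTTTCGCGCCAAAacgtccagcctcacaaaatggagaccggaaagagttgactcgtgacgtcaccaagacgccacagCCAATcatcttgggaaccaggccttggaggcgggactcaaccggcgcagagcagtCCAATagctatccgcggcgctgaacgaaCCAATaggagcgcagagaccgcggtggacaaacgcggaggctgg
Mcm6 (chr1:128359656-128359955, minus strand): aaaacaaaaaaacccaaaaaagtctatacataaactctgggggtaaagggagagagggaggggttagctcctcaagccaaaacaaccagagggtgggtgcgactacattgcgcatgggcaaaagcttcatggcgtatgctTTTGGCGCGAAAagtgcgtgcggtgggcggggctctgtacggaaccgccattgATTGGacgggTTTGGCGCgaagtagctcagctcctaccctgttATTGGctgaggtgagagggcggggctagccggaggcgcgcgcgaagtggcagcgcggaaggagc
Pola1 (chrX:93632106-93632405, minus strand): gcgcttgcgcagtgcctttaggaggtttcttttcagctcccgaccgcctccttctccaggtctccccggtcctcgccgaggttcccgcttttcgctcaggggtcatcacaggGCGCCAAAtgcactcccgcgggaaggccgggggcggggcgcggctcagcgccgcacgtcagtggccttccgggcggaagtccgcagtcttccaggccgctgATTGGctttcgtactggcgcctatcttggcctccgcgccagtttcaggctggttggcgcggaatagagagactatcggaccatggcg

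In Mcm5 the words TTTCGCGC and TTTGGCGC (minus strand) begin at -153 and -149 and overlap. In Mcm6 another such pair begins at -110 and -106, with a further TTTGGCGC at -47. Pola1 has TTTGGCGC on the minus strand at -138, and its span of 327.4 kb is the longest of the 40 genes.

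Of the 5 S-phase regulators, E2f1, Cdc25a and Cdk2 fell in KO and E2f2 and E2f3 were not called. E2f1, an activating transcription factor of S-phase genes, was read at 68.2 and 67.7 CPM in KO, 100.9 and 92 CPM in wt, and 68.8 and 65.6 CPM in E518K. The KO and E518K ranges overlapped and both lay below wt, by 0.51 ± 0.07 in KO and 0.52 ± 0.07 in E518K on the log2 scale (adjusted p = 0.00101 and 0.0043). With E518K clone 15 left out, the difference from wt did not pass (-0.48, adjusted p = 0.0584). E2f2, a related activator, stood at 19.7 and 19.3 CPM in KO, 18.9 and 22.4 CPM in wt, and 14.4 and 14.3 CPM in E518K. It was lower in E518K than in wt (-0.53 ± 0.11, adjusted p = 0.0164) and than in KO (-0.45 ± 0.11, adjusted p = 0.0157), and each call was lost without any 1 KO or E518K library (adjusted p from 0.0554 to 0.121). E2f3, the third activator, was not called in any comparison, with values from 57.2 to 68.2 CPM over the 6 libraries.

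Cdk2, the S-phase kinase, and Cdc25a, the phosphatase that activates it, had values in E518K near those in wt. Cdk2 shares 837 bases with Pmel, which stood at -0.85 in KO against wt and 0.67 in E518K against KO. Cdk2 stood at 99.1 and 95.7 CPM in KO, 119.7 and 124.8 CPM in wt, and 116.5 and 119.2 CPM in E518K (-0.33 ± 0.06 in KO against wt, adjusted p = 0.0033, and 0.0559 without KO library 3). Cdc25a stood at 149.3 and 147.1 CPM in KO, 180.2 and 206.1 CPM in wt, and 204.3 and 190.2 CPM in E518K (-0.38 ± 0.08 in KO against wt, adjusted p = 0.00557). Both were higher in E518K than in KO (0.28 ± 0.06 and 0.41 ± 0.08, adjusted p = 0.0102 and 0.00597). For Cdk2 that call was lost without KO library 1 or 3 (adjusted p = 0.0802 and 0.128) and with limma (0.16, adjusted p = 0.122), and for Cdc25a without KO library 3 or E518K clone 8 (adjusted p = 0.057 and 0.0516) and with limma (0.0763).

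**Figure D3:**
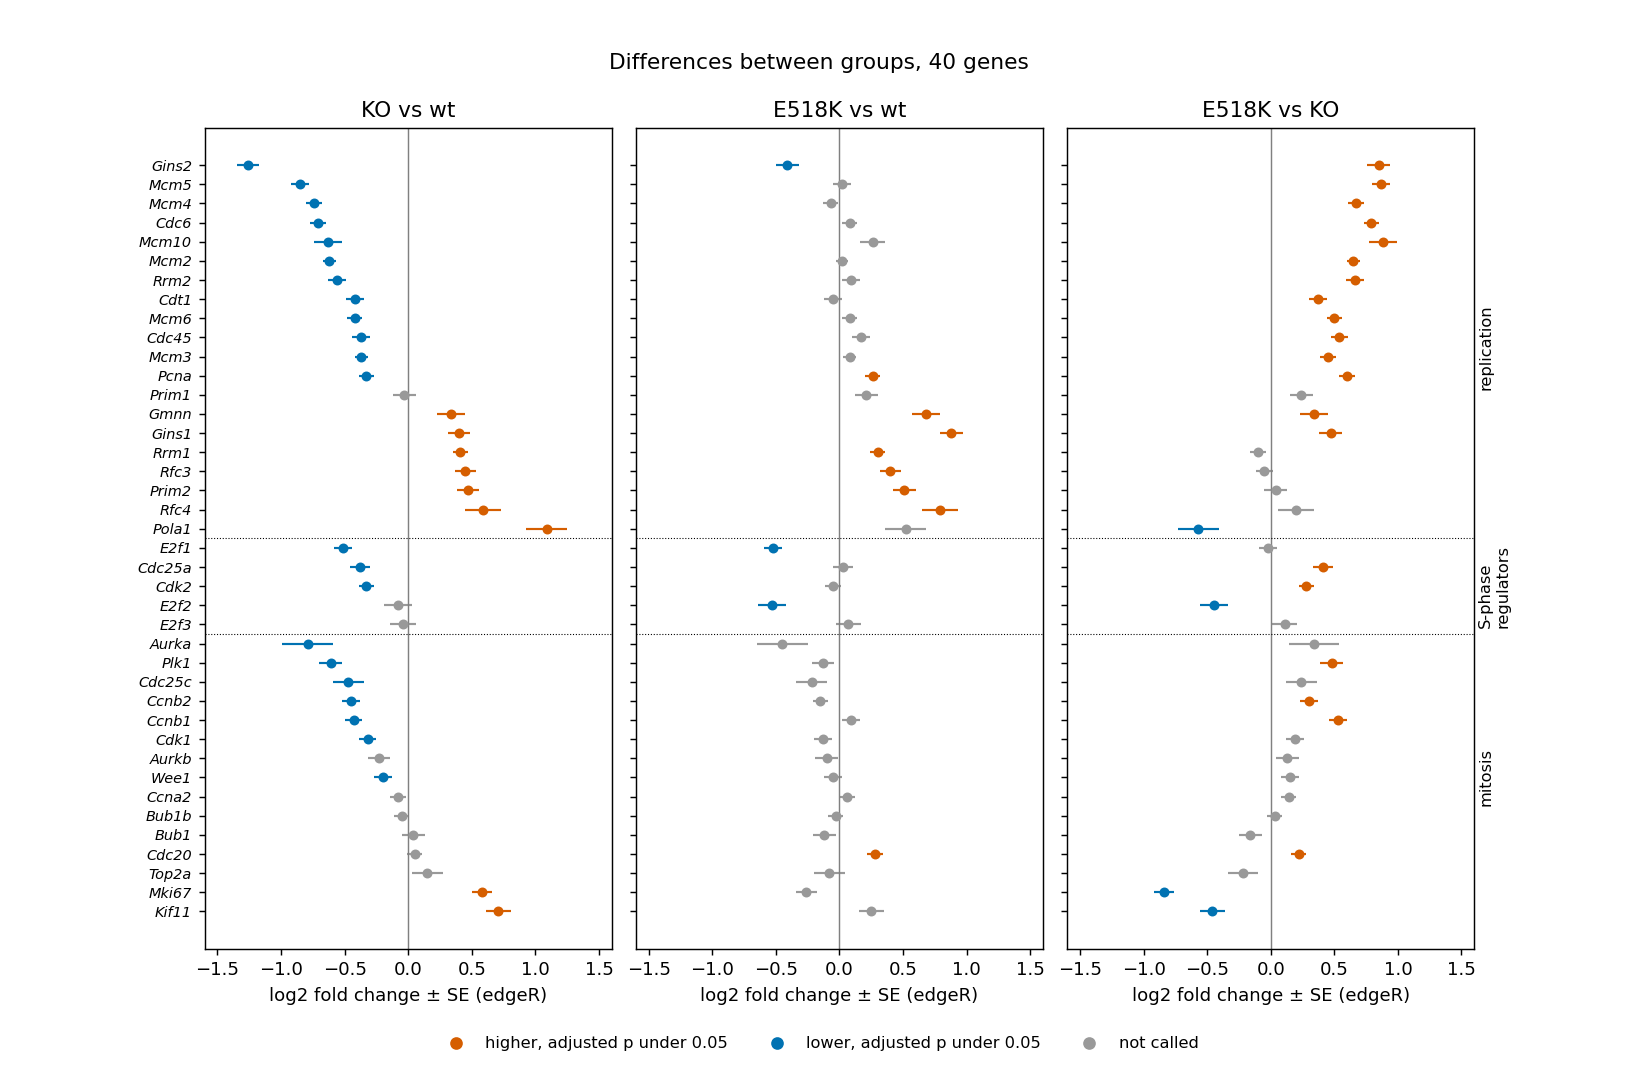
Log2 fold change ± SE (x axis) of each of the 40 genes in KO against wt, E518K against wt and E518K against KO, from edgeR with 2 libraries per group; orange is called higher, blue called lower and grey not called at adjusted p under 0.05. The 12 replication genes with blue points on the left panel have orange points on the right panel, and most mitosis points in the middle panel are grey.

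In mitosis, most of the listed regulators of entry fell in KO. Of Cdk1, its cyclins Ccna2, Ccnb1 and Ccnb2, the inhibitor Wee1 and the activator Cdc25c, 5 of 6 fell in KO and 0 of 6 were called in E518K against wt by edgeR. At an unadjusted p under 0.05 and with DESeq2 that count was also 0, and limma called 2 lower (Cdk1 and Ccnb2). Of all tested genes, 29.7% were called lower in KO than in wt, and only 23.7% were called either way in E518K against wt. A count of 0 among 6 genes is thus not particular to them. Ccnb1 was read at 197.2 and 198.8 CPM in KO, 284.4 and 250.6 CPM in wt, and 279.1 and 292.2 CPM in E518K. KO lay below the other groups, which overlapped, with -0.43 ± 0.07 in KO against wt (adjusted p = 0.00226), and E518K against KO gave 0.53 ± 0.07 (adjusted p = 0.00161). Without wt clone 12, Ccnb1 was also called higher in E518K than in wt (0.19, adjusted p = 0.0277). Ccnb2 stood at 108.7 and 112.4 CPM in KO, 157.2 and 145.2 CPM in wt, and 136.5 CPM in both E518K clones (-0.45 ± 0.07 in KO against wt, adjusted p = 0.00107). Ccnb2 was higher in E518K than in KO (0.30 ± 0.07, adjusted p = 0.00876), a call lost without KO library 1 (adjusted p = 0.104), KO library 3 (0.0698) or E518K clone 8 (0.0506). Cdk1 itself fell by 0.32 in KO (SE 0.07, adjusted p = 0.00494, and 0.0676 without KO library 1).

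Cdc25c fell in KO (-0.47 ± 0.12, adjusted p = 0.015), a call lost without KO library 1 or 3 (adjusted p = 0.1 and 0.0835). It stood at -0.30 without wt clone 12 (adjusted p = 0.0258), and it shares 1656 bases with Gm3550. Wee1 had the smallest called fall, -0.20 ± 0.07 (adjusted p = 0.0342), which did not pass without KO library 1 or 3 (adjusted p = 0.239 and 0.13) or without E518K clone 8 or 15 (0.0547 and 0.0502). Ccna2, which acts in both S phase and mitosis, was read at 191.3 and 197.0 CPM in KO, 208.6 and 200.7 CPM in wt, and 210.7 and 216.0 CPM in E518K and was not called in any comparison (-0.08 ± 0.06 in KO against wt, adjusted p = 0.297). E518K against KO gave 0.14 ± 0.06 (adjusted p = 0.1, but 0.0252 with only the groups compared in the fit).

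Plk1, a kinase needed for centrosome maturation and mitotic entry, fell in KO. Its values were 120.8 and 123.6 CPM in KO, 197.7 and 175.6 CPM in wt, and 180.7 and 159.4 CPM in E518K, with -0.61 ± 0.09 in KO against wt (adjusted p = 0.00102), and E518K against KO gave 0.48 ± 0.09 (adjusted p = 0.0045). Aurka, the centrosomal Aurora kinase, was read at 124.3 and 128.6 CPM in KO, 273.7 CPM in wt clone 12, 164.8 CPM in wt clone 16, and 165.1 and 155.8 CPM in E518K. wt clone 12 was far above all other libraries, while wt clone 16 lay within the range of the E518K clones. Aurka fell by 0.79 in KO (SE 0.20, adjusted p = 0.0129, and 0.0588 without KO library 1). Without wt clone 12 the difference was -0.38 (adjusted p = 5.48e-04), less than 0.5 times that value, and without wt clone 16 it was -1.12 (adjusted p = 7.67e-07). In E518K against wt it stood at -0.45 ± 0.20 (adjusted p = 0.146), and without wt clone 16 at -0.77 (adjusted p = 3.04e-05). Aurkb, the kinase of the chromosomal passenger complex, was not called in KO against wt (-0.23 ± 0.09, adjusted p = 0.0509). It passed the test with upper-quartile factors (-0.29, adjusted p = 0.0172), with no filter (-0.24, 0.0429) and with limma (-0.18, 0.0395). Without wt clone 16 the difference was -0.34. Over the 14 alternatives fitted to single genes it ran from -0.34 to 0.04, and the call changed in only 4 of them.

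The number of mitosis genes called between E518K and wt depended on wt clone 16. With all libraries, edgeR called 1 of 15 higher and 0 lower in E518K than in wt (2 higher and 1 lower at an unadjusted p under 0.05, 1 and 1 with DESeq2, 1 and 2 with limma), and without wt clone 16, 1 was higher and 7 lower. Calls over all genes also grew in that fit, to 3360 higher and 3627 lower of 16953 tested (41.2% called, against 23.7% with all libraries). Those 7 were Cdk1 (-0.19, adjusted p = 0.0265), Ccnb2 (-0.20, 0.0151), Cdc25c (-0.37, 0.0144), Plk1 (-0.22, 0.0471), Aurka (-0.77, 3.04e-05), Aurkb (-0.21, 0.0231) and Mki67 (-0.31, 0.019). That fit has 1 wt library, which is assumed to vary like the other groups. Each of these 7 genes had a higher CPM in wt clone 12 than in wt clone 16. The way these genes were picked favours that order, because clone 12 is the only wt library in that fit. Dgcr8 was at 195.5 CPM in clone 12 and 992.4 CPM in clone 16. The part of the Dgcr8 level in the difference between the wt clones was not tested.

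Bub1 and Bub1b, kinases of the spindle checkpoint, were not called in any comparison. Bub1b stood at 228.1 and 233.0 CPM in KO, 243.8 and 235.1 CPM in wt, and 232.2 and 237.4 CPM in E518K, and its 95% confidence interval in KO against wt ran from -0.19 to 0.08 on the log2 scale. Cdc20, the activator of the anaphase-promoting complex, was read at 211.5 and 223.0 CPM in KO, 216.1 and 202.5 CPM in wt, and 254.7 and 252.4 CPM in E518K. Both E518K clones lay above all other libraries, by 0.28 ± 0.06 against wt (adjusted p = 0.0212) and 0.22 ± 0.06 against KO (adjusted p = 0.0257). Each of these calls was lost without any 1 KO or E518K library (adjusted p from 0.0704 to 0.227).

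Mki67 and Kif11 were the only mitosis genes called higher in KO. Mki67, which coats mitotic chromosomes and is widely used as a marker of cycling cells, was read at 126.7 and 132.6 CPM in KO, 89.7 and 83.8 CPM in wt, and 67.4 and 77.4 CPM in E518K. The groups did not overlap, with 0.58 ± 0.08 in KO against wt (adjusted p = 0.00114), -0.26 ± 0.08 in E518K against wt (adjusted p = 0.0631, but 0.0279 with upper-quartile factors and 0.0461 with DESeq2), and E518K against KO gave -0.84 ± 0.08 (adjusted p = 5.08e-04). Kif11, the motor that pushes spindle poles apart, stood at 122.1 and 124.5 CPM in KO, 73.7 and 77.1 CPM in wt, and 80.0 and 99.6 CPM in E518K. It rose in KO (0.71 ± 0.10, adjusted p = 0.00115) and was lower in E518K than in KO (-0.46 ± 0.10, adjusted p = 0.0109, and 0.0609 and 0.0725 without KO libraries 1 and 3). Without E518K clone 8 the latter was -0.30 (adjusted p = 0.0421), and Kif11 was also called higher in E518K than in wt (0.40, adjusted p = 0.0356). Top2a, the topoisomerase that untangles sister chromatids, was not called (0.15 ± 0.12 in KO against wt, adjusted p = 0.334), and without E518K clone 15 it was lower in E518K than in KO (-0.40, adjusted p = 0.0436).

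The windows before the mitosis genes had another makeup. The CHR word TTTGAA was found on either strand in 9 of 11 mitosis genes with a window (81.8%) and 2 of 15 replication genes (13.3%), against 14.5% of tested genes. CCAAT was in 11 of 11 and 12 of 15 (80.0%), against 42.6%. The CHR word was in 6 of 18 genes that fell in KO, 2 of 6 that rose and 5 of 7 that were not called. Ccnb2 and Plk1, which fell, and Mki67 and Kif11, which rose, are shown because they hold the same words and moved in opposite directions. Capitals mark TTTGAA and CCAAT on either strand.
Ccnb2 (chr9:70421505-70421804, minus strand): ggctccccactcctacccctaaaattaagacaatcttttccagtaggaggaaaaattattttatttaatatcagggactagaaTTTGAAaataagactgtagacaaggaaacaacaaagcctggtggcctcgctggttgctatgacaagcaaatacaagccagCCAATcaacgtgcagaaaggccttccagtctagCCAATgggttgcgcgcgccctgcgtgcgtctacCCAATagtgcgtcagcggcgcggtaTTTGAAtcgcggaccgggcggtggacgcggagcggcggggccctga
Plk1 (chr7:122159185-122159484, plus strand): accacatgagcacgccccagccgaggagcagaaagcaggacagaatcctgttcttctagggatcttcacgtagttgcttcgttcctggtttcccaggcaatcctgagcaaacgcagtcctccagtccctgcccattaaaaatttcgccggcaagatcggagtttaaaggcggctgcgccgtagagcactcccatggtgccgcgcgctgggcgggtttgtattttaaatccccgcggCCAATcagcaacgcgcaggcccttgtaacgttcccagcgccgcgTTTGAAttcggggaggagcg
Mki67 (chr7:135716330-135716629, minus strand): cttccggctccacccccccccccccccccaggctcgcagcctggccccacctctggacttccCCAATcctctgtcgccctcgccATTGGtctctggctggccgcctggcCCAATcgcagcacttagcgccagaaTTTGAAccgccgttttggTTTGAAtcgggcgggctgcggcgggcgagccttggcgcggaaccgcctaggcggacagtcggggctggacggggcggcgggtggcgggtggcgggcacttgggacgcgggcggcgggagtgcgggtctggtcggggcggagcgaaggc
Kif11 (chr19:37376132-37376431, plus strand): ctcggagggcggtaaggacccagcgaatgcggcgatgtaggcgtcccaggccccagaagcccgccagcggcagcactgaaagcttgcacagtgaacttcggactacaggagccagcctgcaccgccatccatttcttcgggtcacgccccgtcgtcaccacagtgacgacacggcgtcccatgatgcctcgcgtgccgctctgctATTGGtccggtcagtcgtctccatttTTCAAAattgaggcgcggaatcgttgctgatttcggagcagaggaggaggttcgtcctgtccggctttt

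Ccnb2 holds CCAAT at -87, -54 and -21 and TTTGAA at -167 and 5, relative to the start. In Plk1 CCAAT begins at -14 and TTTGAA at 31. Mki67 has CCAAT words at -188, -166 and -141 and TTTGAA at -116 and -98, and Kif11 has both words on the minus strand, CCAAT at -45 and TTTGAA at -19.

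Over all tested genes, direction in KO went with the length of the gene. The length implied by count and TPM matched the whole genomic span, introns included, within 5% for all 40 genes. That length is the divisor of the deposited TPM, so whether reads in introns were counted cannot be told from it. Among tested genes with a span under 10 kb, 15.1% were called higher and 41.2% lower in KO than in wt. At 10 to 30 kb the shares were 24.0% and 35.4%, at 30 to 100 kb 34.6% and 23.6%, and at 100 kb or more 43.5% and 15.2%. Of the 40 genes, 23 lay between 10 and 30 kb, where 5 rose and 16 fell, and 9 lay under 10 kb, where 1 rose and 5 fell. Of the 6 genes between 30 and 100 kb, 1 rose and 1 fell. Both genes of 100 kb or more, Pola1 (327.4 kb) and Prim2 (216.0 kb), rose. The median span was 26.6 kb for the 9 genes that rose and 14.8 kb for the 22 that fell. Among the 40, the share that fell was thus not highest in the shortest class, only 8 genes were longer than 30 kb, and no trend over them was tested.

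**Figure D4:**
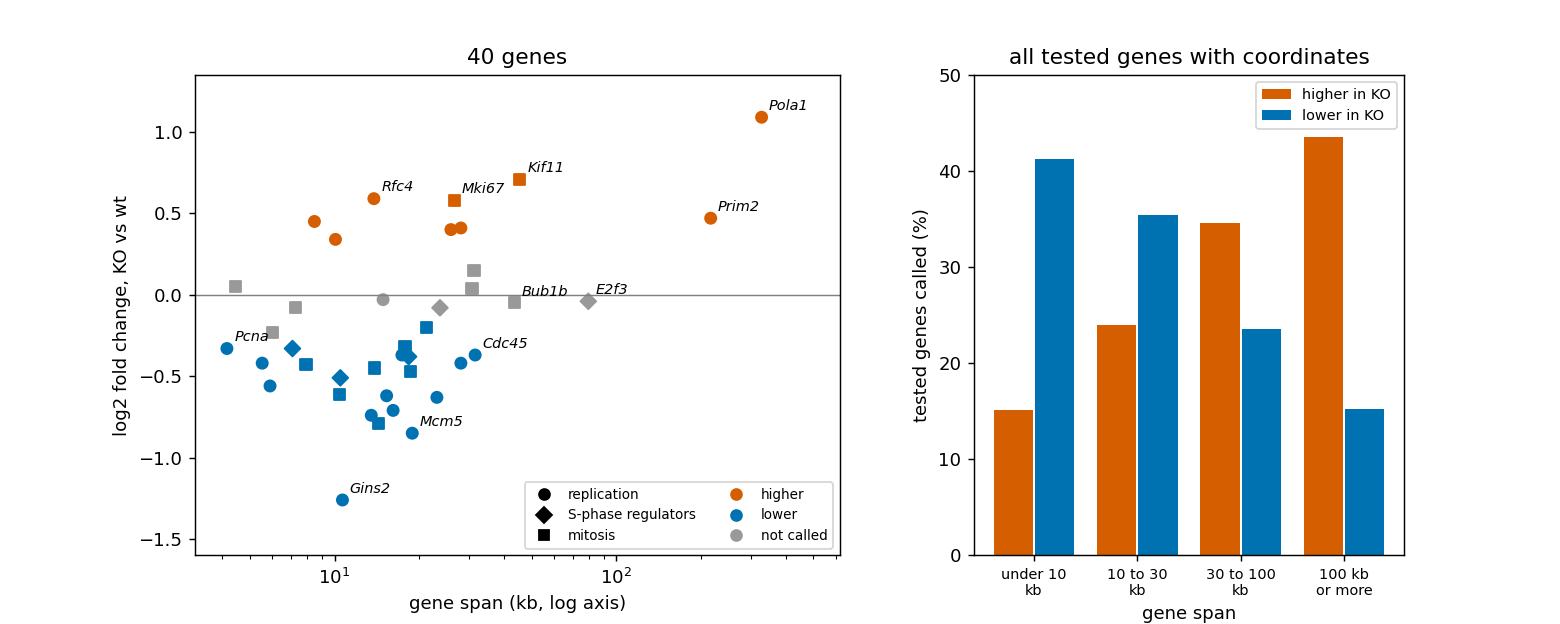
Left, log2 fold change in KO against wt (y axis) against gene span in kb (log x axis) for the 40 genes, with shape for role and colour for the call. Right, percent of tested genes called higher and lower in KO (bars from 0) in 4 classes of span; the share called higher grows from 15.1% to 43.5% and the share called lower drops from 41.2% to 15.2%.

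The comparison was refitted with the trend on span taken up as an offset in each library, an alternative chosen after seeing the data. In KO against wt it left 10 genes higher and 19 lower. The calls of Pcna (-0.03, adjusted p = 0.684), Cdt1 (-0.14, 0.0837), Cdk2 (-0.08, 0.383) and Wee1 (-0.15, 0.0951) among the lower genes and of Prim2 (0.02, 0.921) among the higher ones were lost. Mcm2 to Mcm6 stayed lower in KO. Pola1 stayed higher at 0.53 (adjusted p = 0.00652), down from 1.09, which placed it below Mki67 (0.59) and Kif11 (0.61). On log2(TPM + 1) with limma, Pola1 stood at 0.66 (adjusted p = 0.0102). Among calls that held in KO against wt, the offset moved Rrm2 to -0.29, E2f1 to -0.33, Ccnb1 to -0.20 and Fbxo5, described below, to -0.46, and it raised Gmnn to 0.52 and Mcm7 to 0.53. With the offset Ccna2 and Cdc20 were called higher (0.17 and 0.35, adjusted p = 0.0345 and 0.00155) and E2f3 lower (-0.25, adjusted p = 0.0433). In E518K against KO the offset ended the calls of Cdt1 (0.14, adjusted p = 0.0967), Gmnn (0.19, 0.21), Pola1 (-0.21, 0.193), Cdk2 (0.07, 0.481) and Cdc20 (-0.02, 0.769), and in E518K against wt that of Prim2 (0.38, 0.0671). It lowered Pcna to 0.35, Rrm2 to 0.43 and Ccnb1 to 0.34 in E518K against KO, where each stayed called. Restricting the list to the 33 genes that overlap no other gene gave 8 higher and 18 lower in KO. The 7 genes left out were Cdc45, Gins2, Rfc4, Cdk2, Ccna2, Cdc20 and Cdc25c.

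On the deposited TPM scale, which divides counts by that span, Pcna had the highest level of the 40 genes, from 635 TPM in KO library 1 to 948 TPM in E518K clone 15. Pola1 had the lowest level in the wt and E518K clones, from 0.761 TPM in wt clone 12 to 1.47 TPM in E518K clone 15. In the KO libraries Prim2 was lowest, at 1.66 and 1.68 TPM, and Pola1 stood at 2.01 and 2.08 TPM. Introns count toward the span, so these levels are not those of the mature transcripts: exons make up 57.8% of the span of Pcna and 2.69% of that of Pola1.

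The miR-290 and miR-302 microRNAs and the miR-17 family act on 3′ UTRs through near-identical seeds (bases 2 to 8, in capitals), here given for miR-294 and miR-17 from RefSeq.
miR-294-3p: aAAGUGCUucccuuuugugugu
miR-17-5p: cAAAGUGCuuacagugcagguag

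The word AGCACTT, which pairs with the first seed, was in the longest annotated 3′ UTR of 3 of the 40 genes (7.5%), against 16.7% of 14948 tested genes with a UTR. GCACTTT, which pairs with the second, was in 8 of 40 (20%), against 13.8%. The 2 words can overlap as AGCACTTT, and either was found in 9 of 40 (22.5%), against 22.9%. Median UTR length was 604 bases in the 40 genes and 1120 in the tested genes. Of the 9 genes that rose in KO, 0 held either word. Either was in 7 of the 22 that fell and in 2 of the 9 not called. Their UTRs differed in length, with medians of 305, 971 and 511 bases, and the part of length in these shares was not tested. Sites in Cdk2 and Cdc25a, which fell in KO, and in E2f2 and E2f3, which were not called, are not shown. The sites shown are in other genes that fell in KO. The word is in capitals, with the coordinates of the word on GRCm38 and flanks along the transcript.
Mcm3 (chr1:20803166-20803172, minus strand): cccacccccagGCACTTTagtccaggaag
Cdc6 (chr11:98921443-98921449, plus strand): cctgtgatcccAGCACTTgggaaatagag
Rrm2 (chr12:24713640-24713646, plus strand): aaataaaattgGCACTTTgcacacacaca
E2f1 (chr2:154560212-154560218, minus strand): gggctctaactGCACTTTtggtgtccttg
E2f1 (chr2:154559697-154559703, minus strand): ccctccagtctGCACTTTgatttgtttcc
Wee1 (chr7:110142605-110142611, plus strand): atccaactgggAGCACTTtaggcatcgtg

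Other genes of the same machinery, in lists drawn up with earlier results of these data known, are given for comparison. Of 51 further replication genes, 25 fell and 7 rose in KO, 13 rose and 3 fell in E518K against wt, and 33 rose and 0 fell in E518K against KO (edgeR, with median log2 fold changes of -0.20, 0.04 and 0.35). At an unadjusted p under 0.05 the last count was 35 higher and 2 lower, with DESeq2 34 and 1, and with limma 26 and 1. Without KO library 1 or 3, KO against wt had 3 or 2 higher and 20 or 21 lower, E518K against wt had 5 higher and 0 lower, and E518K against KO had 20 or 19 higher. Without E518K clone 15, E518K against wt had 3 higher and 0 lower, and without wt clone 16 it had 12 and 10. Of all tested genes, 27.4% were called higher and 29.7% lower in KO against wt, and 11.3% and 12.5% in E518K against wt. In E518K against KO the shares were 22% and 19.8%. Calls over all tested genes also dropped without a KO or E518K library, and in E518K against wt they grew without wt clone 16. Dctpp1, which removes damaged deoxynucleotides, was read at 33.4 and 36.6 CPM in KO, 115.2 and 105.0 CPM in wt, and 105.3 and 98.8 CPM in E518K (-1.65 ± 0.08 in KO against wt, adjusted p = 2.49e-05). Uhrf1, which brings maintenance DNA methylation to replicated DNA, was at -1.15 ± 0.08 in KO against wt (adjusted p = 5.56e-05). Pola2, the partner subunit of Pola1, fell in KO (-0.80 ± 0.07, adjusted p = 1.08e-04), so that the 2 subunits moved in opposite directions. Mcm7, the remaining ring subunit besides Mcm2 to Mcm6, was read at 605.0 and 622.3 CPM in KO, 493.4 and 504.6 CPM in wt, and 667.7 and 664.6 CPM in E518K and rose in both KO and E518K against wt (0.30 ± 0.05 and 0.42 ± 0.05, adjusted p = 0.00269 and 0.00357). Its span overlaps Cops6 and Ap4m1, with which it can share reads. The span (chr5:138164583-138172422, minus strand) also holds miR-93 and miR-106b of the miR-17 family, on the same strand. The part of these microRNAs, and of their processing with DGCR8, in the Mcm7 level was not tested. Tyms and Pole4 were each 0.51 ± 0.06 higher in E518K than in wt (adjusted p = 0.00288 and 0.00309), and Dtymk was 0.69 ± 0.06 higher in E518K than in KO (adjusted p = 2.97e-04). Tyms also rose in KO against wt (0.33 ± 0.06, adjusted p = 0.00323), a call lost without KO library 3. Pole4 was not called there (0.03 ± 0.06, adjusted p = 0.7).

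Of 69 further mitosis genes, 33 rose and 20 fell in KO, 3 rose and 4 fell in E518K against wt, and 18 rose and 25 fell in E518K against KO (medians 0.11, 0.05 and -0.07). The 33 rises in KO became 22 without KO library 1 and 19 without KO library 3, with 16 falls in both. In E518K against KO the calls dropped to 8 higher and 10 lower without KO library 1, 8 and 8 without KO library 3, 12 and 10 without E518K clone 8, and 12 and 26 without clone 15. In E518K against wt, leaving out 1 library gave between 1 and 8 higher and between 0 and 8 lower. Over all tested genes with all libraries, 27.4% were called higher and 29.7% lower in KO against wt, so the falls lay near that share. The shares were 11.3% and 12.5% in E518K against wt, and 22% and 19.8% in E518K against KO. Calls over all tested genes also dropped without a KO or E518K library. Cenpa, the histone variant that marks centromeres, was read at 55.9 and 52.9 CPM in KO, 131.5 and 117.2 CPM in wt, and 106.3 and 97.2 CPM in E518K, and fell in KO by 1.19 ± 0.08 on the log2 scale (adjusted p = 7.09e-05). Ube2s, a ubiquitin-conjugating enzyme of the anaphase-promoting complex that overlaps Rpl28, and Fbxo5, an inhibitor of that complex, fell by 0.90 ± 0.07 and 0.72 ± 0.07 in KO (adjusted p = 9.56e-05 and 1.92e-04). In E518K against wt, Mad2l1 of the spindle checkpoint rose by 0.53 ± 0.08 (adjusted p = 0.00583) and Ncapd2 of condensin fell by 0.35 ± 0.06 (adjusted p = 0.00799, and 0.0784 without E518K clone 15). Espl1, the protease separase, fell by 0.28 ± 0.07 (adjusted p = 0.0241), a call lost without any 1 KO or E518K library. In KO against wt these genes moved the same way. Mad2l1 rose there by 0.39 ± 0.08 (adjusted p = 0.00514), and Ncapd2 and Espl1 fell (-0.46 ± 0.06 and -0.47 ± 0.07, adjusted p = 6.27e-04 and 9.6e-04).

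**Figure D5:**
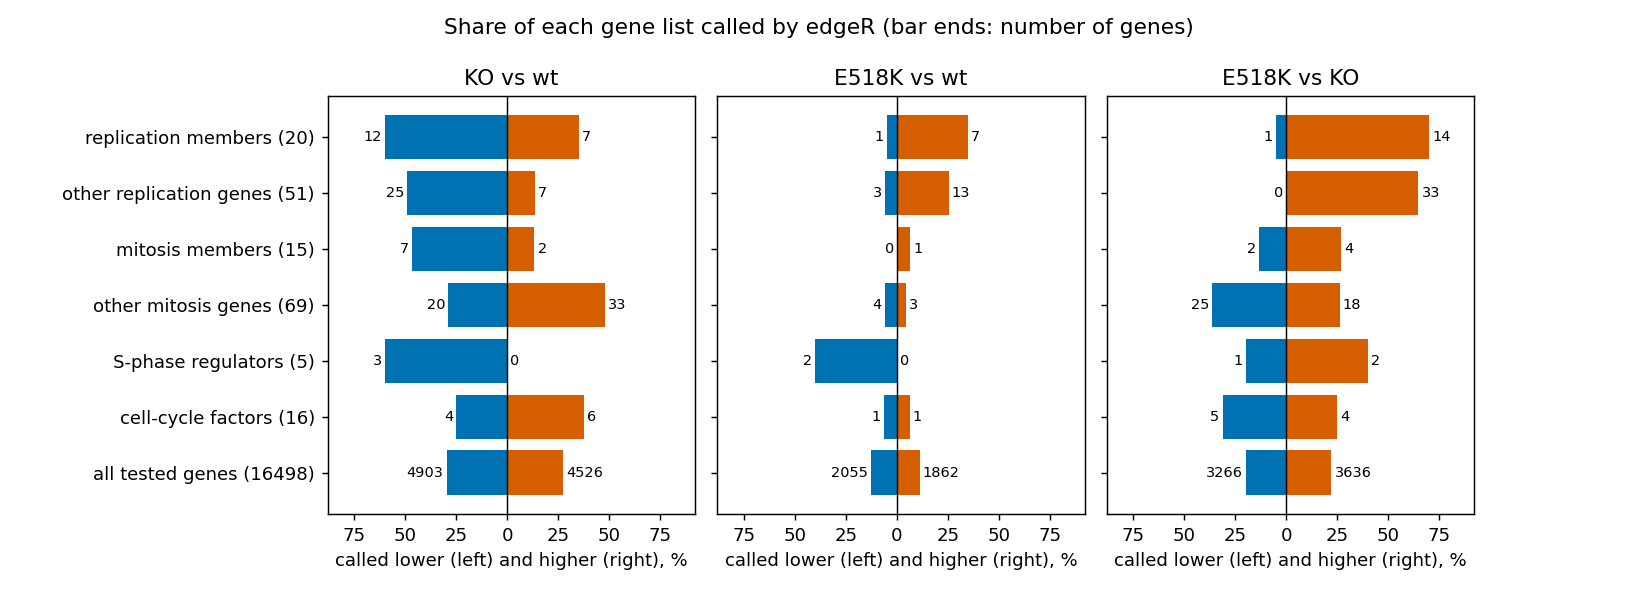
Percent of each gene list called lower (left, blue) and higher (right, orange) by edgeR in the 3 comparisons, with the number of genes at the bar ends. In KO against wt the replication lists extend to the left (12 of 20 and 25 of 51 lower), and the 69 further mitosis genes extend to the right (33 higher).

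Among 16 transcription factors of the cell cycle, 6 rose and 4 fell in KO, where 27.4% of all tested genes were called higher and 29.7% lower. Rbl2, a pocket protein of the DREAM complex that represses cell-cycle genes, was read at 34.8 and 37.4 CPM in KO, 8.04 and 9.41 CPM in wt, and 6.97 and 6.93 CPM in E518K, and it overlaps Aktip. Rbl1, the related pocket protein, was 1.01 ± 0.07 lower on the log2 scale in E518K than in KO (adjusted p = 2.01e-04). Lin37, another DREAM subunit, rose in KO and in E518K against wt (1.14 ± 0.08 and 0.61 ± 0.08, adjusted p = 7.66e-05 and 0.0041) and overlaps Hspb6. Mybl2, which partners MuvB as an activator in S phase, was read at 684.7 and 686.6 CPM in KO, 1604 and 1325 CPM in wt, and 1297 and 1314 CPM in E518K (-1.09 ± 0.09 in KO against wt, adjusted p = 1.13e-04). E2f4, the E2F of repressor complexes, was 0.80 ± 0.07 higher in E518K than in KO (adjusted p = 3.08e-04). Rb1, the retinoblastoma protein, was lower than wt in E518K (-0.83 ± 0.17, adjusted p = 0.0164), which did not pass after E518K clone 8 (-0.73, adjusted p = 0.116) or clone 15 (-0.93, adjusted p = 0.0958) was left out. Rb1 was also lower in KO than in wt (-0.73 ± 0.17, adjusted p = 0.00956) and was not called between E518K and KO (-0.10 ± 0.17, adjusted p = 0.653). The call in KO was lost without KO library 3 (-0.68), and the wt clones differed, at 135.6 and 201.3 CPM. With limma neither difference from wt passed (-0.74 in E518K and -0.57 in KO, adjusted p = 0.0728 and 0.0784). Without wt clone 16 the difference from wt stood at -0.52 in E518K and -0.42 in KO, and the span of Rb1 overlaps Rcbtb2 and Lpar6.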

How the data were processed

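Poly(A) mRNA of 6 cultures was sequenced in paired ends, per the labels' protocols. The submitters' processing notes list STAR, bedtools and the build GRCm38.p6 but no settings. The authors deposited raw whole-number counts per gene symbol, and a TPM table in which the authors divided counts by 1 length per gene and scaled each library. Of 15050 genes, 98.5% had such a length within 5% of their genomic span and 3.79% within 5% of their exonic length. Spans and 3′ UTRs came from GENCODE M21 on GRCm38.

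Counts were tested with edgeR 4.0.16 in R 4.3.3 (TMM factors, filterByExpr at its default minimum of 10 counts, robust quasi-likelihood F tests, group as the only term, all 6 libraries in 1 fit with 3 residual degrees of freedom). The common biological coefficient of variation was 11.9%. Adjusted p-values run over all 16498 tested genes, with a threshold of 0.05. The SE is the absolute log2 fold change over the square root of F. CPM uses the TMM factors. Fits were tested on simulated data. Alternatives were upper-quartile and RLE factors, no filter, DESeq2 1.42.0, only the groups compared, each library left out, the KO libraries summed, limma 3.58.1 on log2(TPM + 1), and only genes that overlap no other. The genes, lists and tests were chosen with earlier results of these data known. In the report, genes of these lists beyond the 40 are named, per list and comparison, as the 3 with the smallest p among those called. Genes in the closing observations were chosen after their values were seen.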

Additional observations from a re-analysis of the deposited data

How the results depend on the processing

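No paired analysis was possible because the groups share no replicate numbers. Among the 40 genes, 20 of 31 calls in KO against wt remained under all 14 alternatives fitted to single genes, as did 2 of 11 in E518K against wt (Gmnn and Gins1) and 14 of 24 in E518K against KO. On leaving out 1 library at a time, calls among the 40 genes ranged from 25 to 31 in KO against wt, from 2 to 20 in E518K against wt (2 without E518K clone 15, 6 without clone 8, 7 without either KO library and 20 without wt clone 16) and from 15 to 30 in E518K against KO (15 without KO library 3 and 16 without KO library 1). Over all tested genes they ranged from 6084 to 10958, from 644 to 6987 and from 3285 to 9482. With the KO libraries summed to 1 sample, 7 of the 40 genes were called in E518K against wt and 15 in E518K against KO, and over all genes 6163 in KO against wt, 1909 in E518K against wt and 3267 in E518K against KO, where all libraries gave 9429, 3917 and 6902. With only the groups compared in the fit, E518K against wt had 1999 calls over all genes, whereas E518K against KO had 9530, and 30 of the 40 genes in place of 24. In E518K against wt the split of higher and lower calls over all genes was 1862 and 2055, against 1472 and 2455 with upper-quartile factors and 883 and 2292 with limma on log2(TPM + 1), and among the 40 genes limma gave 7 higher and 5 lower in place of 8 and 3. In E518K against KO limma gave 2611 higher and 3750 lower over all genes, against 3636 and 3266. With the offset for gene span, chosen after seeing the data, Ccna2 in KO against wt turned to 0.17, Pole4 in KO against wt to -0.20 (adjusted p = 0.0273) and Cdc20 in E518K against KO to -0.02. The causes of these shifts with the scaling, the tool and the libraries were not tested. With 2 libraries per group, the size that passed the test depended on the spread of each gene: Wee1 was called at -0.20 in KO against wt, and Pola1 was not at 0.52 in E518K against wt.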

Other observations

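The subunits of several complexes among the further genes did not all move one way in KO, a pattern noticed after their values were seen. In KO against wt, 27.4% of all tested genes were called higher and 29.7% lower, so mixed directions are not particular to these complexes. The calls below are from the fit with all libraries. Of the 4 subunits of the NDC80 complex, which ties microtubules to kinetochores, Ndc80 (0.62 ± 0.09, edgeR adjusted p = 0.00105), Nuf2 (0.53 ± 0.13, adjusted p = 0.0101) and Spc25 (0.86 ± 0.16, adjusted p = 0.00355) rose and Spc24 fell (-0.38 ± 0.07, adjusted p = 0.00402). Of the 8 listed condensin genes, 4 rose, 2 fell and 2 were not called. Smc2 and Smc4, the core ATPases, rose by 0.90 ± 0.12 and 0.80 ± 0.08 (adjusted p = 8.69e-04 and 2.73e-04), as did Ncapg (0.41 ± 0.10, adjusted p = 0.0124) and Ncapg2 (0.98 ± 0.14, adjusted p = 0.00121). Ncapd2 and Ncaph2 fell (-0.46 ± 0.06 and -0.47 ± 0.09, adjusted p = 6.27e-04 and 0.00367), and Ncaph and Ncapd3 were not called (0.17 ± 0.07 and -0.10 ± 0.07). The share of genes called higher in KO grew with span over all tested genes, and the part of span in these values was not tested.

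Of the 6 origin recognition genes, Orc1 fell in KO (-0.71 ± 0.06, adjusted p = 1.68e-04), Orc2 and Orc4 rose (0.60 ± 0.14 and 0.49 ± 0.14, adjusted p = 0.00863 and 0.0216), and Orc3, Orc5 and Orc6 were not called (0.05 ± 0.09, 0.13 ± 0.10 and -0.15 ± 0.09). Here too the shares over all tested genes were 27.4% higher and 29.7% lower. Of the genes named here, Ncapg, Ncaph2, Orc2, Orc4 and Orc6 overlap another gene, with which they can share reads.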
